A study of Schmidtea mediterranea with 15 samples.

Results

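Regenerating trunk fragments at day 7 were compared with whole intact juveniles of the planarian flatworm Schmidtea mediterranea. The comparison takes 6 of the 15 poly(A) RNA libraries of the study, chosen by their labels alone: 3 libraries of day 7 fragments and 3 of juveniles. All animals carried the biotype label Sexual S2F2. The other 9 libraries are trunk fragments at day 0, day 3 and day 5, with 3 of each, and they serve here as earlier points of the same regeneration. The labels give no age or size of the animals and no number of animals per library, and nothing in them tells separate animals from repeat libraries of 1 pool. The p-values therefore speak of the spread among these libraries, part of which may be technical. A juvenile is a whole animal and a fragment is a trunk, so body part, stage and regeneration differ together between the groups and cannot be told apart.

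Planarians rebuild missing body parts from a population of dividing stem cells, the neoblasts, while the remaining tissue is reshaped to the new body proportions. A trunk fragment has lost its head and tail, and in the week after the cut it forms new brain and eye tissue in front and new tail tissue behind. Sexual planarians are hermaphrodites whose reproductive organs form as the animal grows, so a juvenile has not yet built all that an adult holds. The deposited table identifies its sequences by accession only. No gene name, organ or cell type can therefore be given to any transcript here, marker genes of trunk or juvenile tissue could not be checked, and no sequence is shown. Identifiers are given for 4 transcripts, 2 higher in each group.

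The day 7 libraries held 45862344 to 50684775 counts and the juvenile libraries 25735815 to 37791352. Of 92053 sequence records in the table, 46736 had enough counts to be tested. Several records can stand for 1 gene, so counts of transcripts are not counts of genes. On the first principal component of log2 CPM over these 6 libraries (CPM is counts scaled to library size), which carried 56.9% of their variance, juveniles lay close together at scores of 59.6 to 75.5. Day 7 replicates 1, 2 and 3 lay apart at -76.3, -12.9 and -114. Day 7 replicate 2 was thus the fragment library nearest to the juveniles and replicate 3 the farthest. The second component (16.6%) set the same pair of libraries at its ends, replicate 2 at 80.5 and replicate 3 at -44.8.

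After 7 days of regeneration the fragments still differed from juveniles in many transcripts, and the differences were lopsided. At day 7, 2433 transcripts (5.21% of those tested) were higher than in juveniles and 1500 (3.21%) were lower, together 8.42% (edgeR quasi-likelihood test, adjusted p under 0.05). Most differences were small: the median called fold was 1.46 for transcripts higher at day 7 and 1.44 for those higher in juveniles. Large differences lay mostly on the side of the fragments. At least 2-fold apart were 776 transcripts higher at day 7 (1.66% of those tested) and 274 higher in juveniles (0.586%), and at least 4-fold apart were 474 (1.01%) and 36 (0.077%). These counts depend on the test: a test against a 2-fold threshold called 359 higher at day 7 and 35 higher in juveniles, and DESeq2 had 1767 at least 2-fold and 1419 at least 4-fold higher at day 7. Without juvenile replicate 2 the test called 2464 transcripts in place of 3933. The 1500 transcripts higher in juveniles were 798 without that library, 814, 918 and 916 without day 7 replicate 1, 2 or 3, and 918 without the low-count filter, where 76.2% of calls were higher at day 7 in place of 61.9%.

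**Figure D1:**
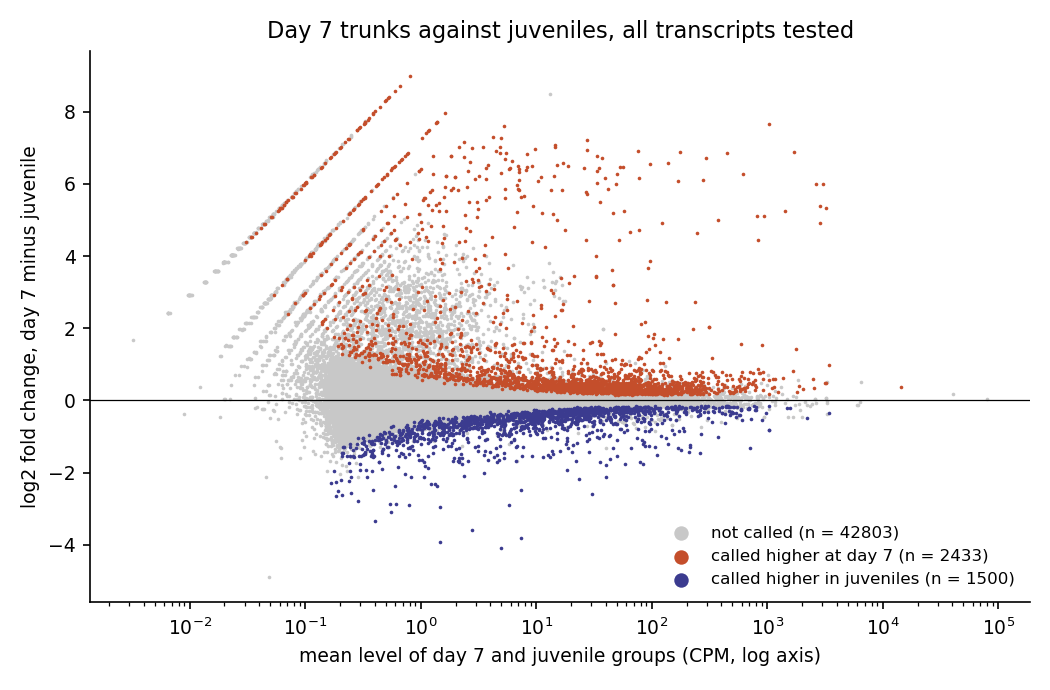
Each point is 1 of 46736 transcripts tested, with its mean level over both groups in CPM on a log axis (x) and its fitted log2 fold change, day 7 minus juvenile (y); red and blue points passed the edgeR test. Red points reach far above 4 on the log2 scale at low and high levels alike, while blue points stay mostly above -2. The diagonal lines at the upper left are transcripts with 0 or a few juvenile counts. Their fitted folds depend on the default prior count of the edgeR fit, not on the 2 used for log2 CPM.

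Compared library by library, more transcripts had separate groups than passed the test. In 6753 transcripts (14.4% of those tested) the lowest day 7 library lay above the highest juvenile library, and in 6387 (13.7%) the order was the other way. With so few libraries per group, part of the transcripts separate by chance. That part was not computed, so these are not counts of transcripts that differ. Among the called transcripts 2430 of 2433 and 1492 of 1500 had such separate groups, which being called already favours. The median SD of log2 CPM between libraries was 0.181 at day 7 and 0.207 in juveniles. On the first principal component the day 7 libraries lay farther apart than the juvenile libraries.

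The fitted folds were graded by size. Under 1.5-fold were 1292 of the transcripts higher at day 7 and 849 of those higher in juveniles, and from 1.5-fold to 2-fold were 365 and 377, so the second class had about as many of either direction. From 4-fold to 16-fold there were 161 against 35, and at 16-fold or more 313 against 1. Part of the top class rests on very low juvenile counts. Of the 474 transcripts at least 4-fold higher at day 7, 69 had no count in any juvenile library, 108 had 1 to 3 counts over the 3 juvenile libraries and 297 had 4 or more. With transcripts at 0 taken at their lower bound, 3 counts over the juvenile group or 0.03 CPM, 463 stayed at least 4-fold and 265 at least 16-fold apart. Among the 297 with 4 or more juvenile counts, 162 were at least 16-fold apart and the median was 21.4-fold.

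Abundant transcripts were called most often, and the tilt toward day 7 was largest among them. In the class at 100 CPM or more in the higher group, 436 of 1575 transcripts (27.7%) were higher at day 7 and 178 (11.3%) higher in juveniles. Between 30 and 100 CPM the shares were 18.5% and 8.32%. Between 3 and 10 CPM they were level, at 5.61% and 5.65%. Under 1 CPM, 1.33% and 0.602% of 22929 transcripts were called, and the part that depth plays in this was not tested. Of the 474 transcripts at least 4-fold higher at day 7, 38 reached 100 CPM, while none (0) of the 36 at least 4-fold higher in juveniles did. Many in both sets were scarce: 188 of the 474 and 15 of the 36 lay under 1 CPM in the higher group.

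**Figure D2:**
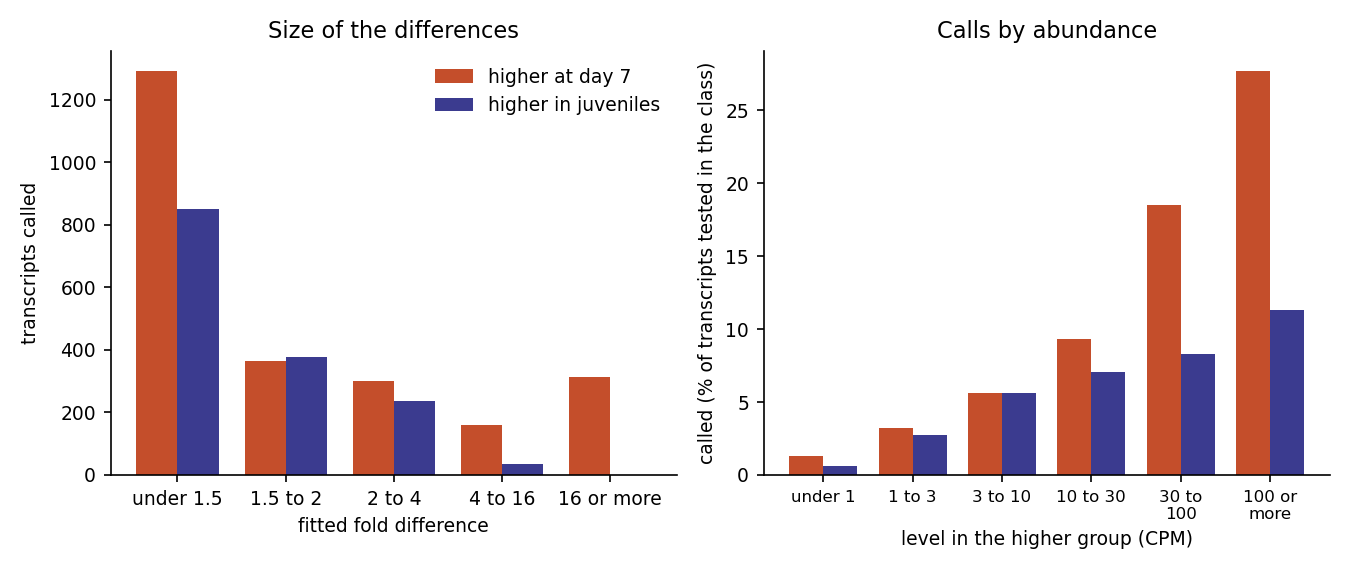
Left, bars give the number of called transcripts (y) in classes of fitted fold difference (x) for each direction; right, bars give the share of tested transcripts called (y, %) in classes of the level in the higher group (x, CPM). Both directions have about as many transcripts between 1.5-fold and 2-fold (365 and 377), and above 16-fold 313 stand against 1.

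Summed over transcripts, the fragments carried more RNA counts in their called set than juveniles did in theirs. The 2433 transcripts higher at day 7 took 26.7%, 24.5% and 25% of the counts in the day 7 libraries and 16.7%, 16.1% and 16.1% in the juvenile libraries. The 1500 transcripts higher in juveniles took 6.61%, 6.90% and 7.00% at day 7 and 9.90%, 10.3% and 9.71% in juveniles. These shares separate the groups because the transcripts were chosen to. How the excess was spread differed: the 10 transcripts with the largest excess held 39.1% of the summed difference in CPM on the day 7 side and 21.1% on the juvenile side. Transcripts under 2-fold apart held 44.6% of the excess at day 7 and 81.2% of that in juveniles.

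In juveniles 274 of the tested transcripts had no count in any library, and at day 7 there was 1 such transcript. The low-count filter took the libraries of all groups, so a transcript at 0 in juveniles passed it through trunk libraries, and these counts are not read as a difference between the groups. The day 7 group held 145116209 counts in all and the juvenile group 91213979. Counted only to the juvenile total, the day 7 group would be expected to have 4.2 transcripts at 0. Beyond this figure the part of depth was not tested. Of the 274 transcripts, 69 passed the test as higher at day 7, with a median day 7 level of 0.237 CPM and a highest of 1.60 CPM. Set against the bound of 3 counts over the juvenile group, these 69 were at least 2.04-fold to at least 53.5-fold higher. The other transcripts at 0 in juveniles did not pass, and the transcript at 0 at day 7 was not called either.

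The earlier fragments show how the transcripts that set day 7 apart had moved before. Day 3 and day 5 were each tested against day 0, and these tests hold no day 7 and no juvenile library, although all libraries share the filter and the estimate of spread, and both tests share the day 0 libraries. Over all transcripts tested, 3.02% were higher and 5.48% lower at day 3 than at day 0, and 3.23% were higher and 5.64% lower at day 5. Among the 2433 transcripts higher at day 7 than in juveniles, 299 (12.3%) were higher and 400 (16.4%) lower at day 3, and 277 (11.4%) were higher and 579 (23.8%) lower at day 5. The set is richer in abundant transcripts than the table as a whole, with a median of 28.7 CPM at day 0 against 1.03 CPM. Of all 3933 transcripts called between day 7 and juveniles, 989 were called at day 3 and 1290 at day 5. When the lists were made again without day 3 replicate 2 the day 3 count was 551, and the day 5 count was 775 without day 5 replicate 2 and 850 without day 5 replicate 3.

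Among the 474 transcripts at least 4-fold above juveniles at day 7, a fall from day 0 to day 5 was called more often than a rise. At day 3, 130 of them (27.4%) were lower than at day 0 and 56 (11.8%) higher. At day 5, 268 (56.5%) were lower and 50 (10.5%) higher, and 156 had no call. The proportions depend on the test: DESeq2 had 1419 transcripts at least 4-fold higher at day 7, of which 284 were lower and 51 higher at day 5. The median transcript changed by -0.71 on the log2 scale from day 0 to day 3 and by -1.13 to day 5, where the median of all tested transcripts was 0.00 and -0.02. In 334 of the 474 (70.5%) the group means fell from day 0 to day 3 and again to day 5, against 19.1% of all tested. Their median level was 8.82 CPM at day 0, 5.65 at day 3, 4.11 at day 5, 1.96 at day 7 and 0.0686 in juveniles. The 268 were 156 without day 5 replicate 2.

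The 268 transcripts that had fallen by day 5 took 3.88%, 4.51% and 3.51% of the counts in the day 0 libraries and 2.12%, 1.58% and 1.85% at day 3. All day 3 libraries lay below those of day 0. Day 3 took no part in choosing the set, but day 0 and day 5 did. At day 5 they took 1.31%, 0.994% and 1.29%, at day 7 0.775%, 0.344% and 0.448%, and in juveniles 0.0130%, 0.00929% and 0.0129%. Each group of libraries lay wholly below the one before. For day 5 against day 0 and for day 7 against juveniles the choice of the set fixed that order. For day 3 below day 0 and day 5 below day 3 the choice favoured it. The day 7 share was still 0.522% ± 0.225 against 0.0117% ± 0.00209 in juveniles (SD, n = 3 each). The 10 most abundant of the 268 held 67.5% of their day 7 counts, so the sums describe mostly those. In bulk RNA, fewer cells of a type and less RNA per cell cannot be told apart.

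The 50 transcripts that had risen by day 5 followed an opposite course. They took 0.975%, 1.1% and 1.02% of the counts at day 0 and 2.47%, 3.00% and 2.35% at day 3, again with no overlap between these groups. The set was chosen as low at day 0 against day 5, which favours this order. At day 5 they took 3.50%, 3.18% and 2.86%, at day 7 4.84%, 3.42% and 3.86%, and in juveniles 0.134%, 0.0853% and 0.155%. Day 5 and day 7 libraries overlapped. Although few, these transcripts took 4.04% ± 0.729 of the day 7 counts, more than the 268 and the 156 together (0.522% ± 0.225 and 0.879% ± 0.415; SD, n = 3 each). The 10 most abundant of the 50 held 94.6% of their day 7 counts. By the choice of the set their level was above juveniles, with medians of 17.1 to 28.0 CPM in the day 7 libraries and 2.30 to 2.94 CPM in the juvenile libraries.

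The 156 transcripts without a call at day 5 took 3.25%, 4.14% and 2.49% of the counts at day 0 and 1.34%, 0.531% and 0.767% at day 7. The means were 3.29% ± 0.83 at day 0 and 0.879% ± 0.415 at day 7 (SD, n = 3 each). In all 3 juvenile libraries the share was between 0.0446% and 0.0633%.

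**Figure D3:**
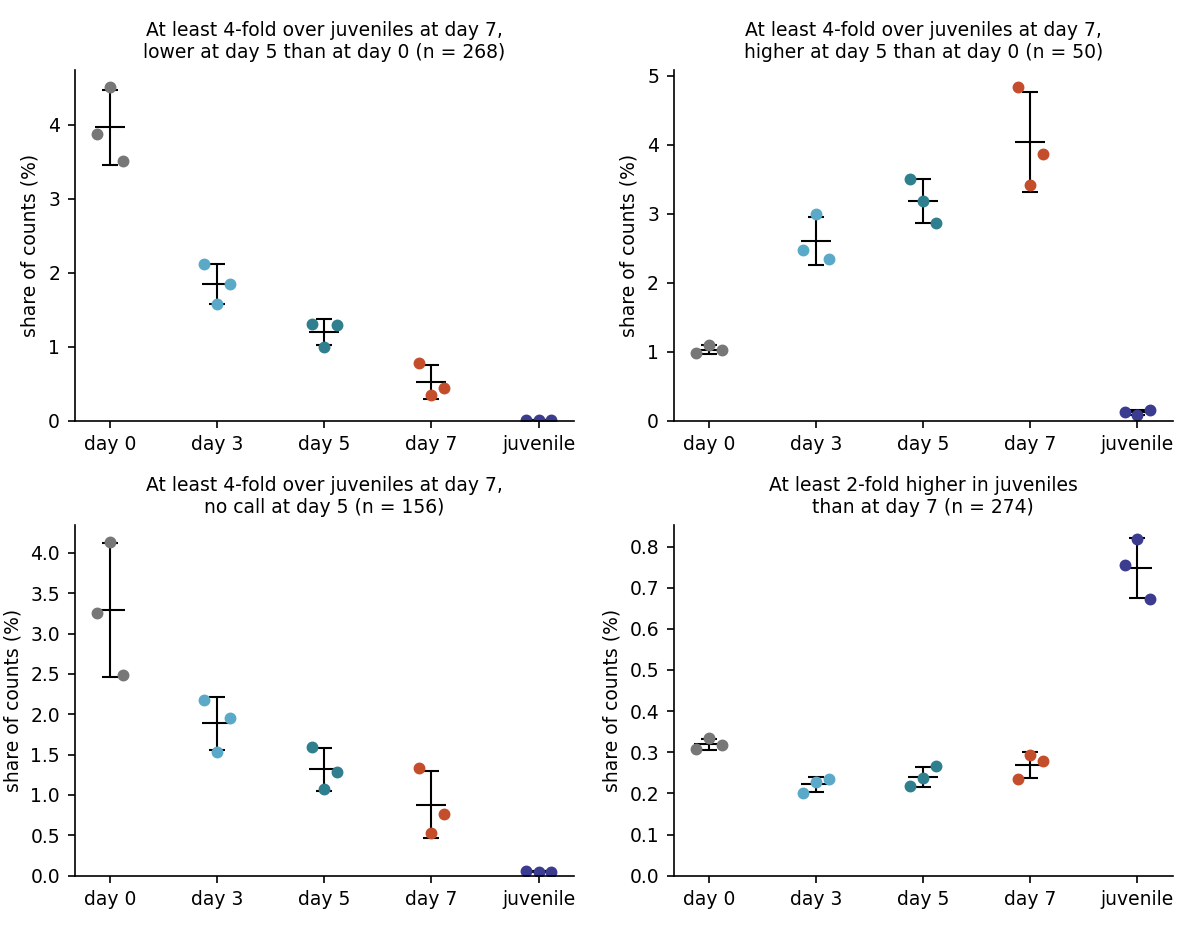
Points give the share of a library's counts (y, %) taken by 4 sets of transcripts in the 15 libraries by group (x), with the mean and SD of 3 libraries as a bar and whiskers; each panel has its own scale from 0. Of the transcripts at least 4-fold above juveniles at day 7, 268 went down from 3.97% at day 0 to 0.522% at day 7 and 50 went up from 1.03% to 4.04%, while the 274 transcripts at least 2-fold higher in juveniles stayed at 0.202% to 0.334% in every trunk library.

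GDAG01016573.1, which had the smallest p of the transcripts higher at day 7, stood at 3.83, 5.20 and 5.01 CPM in the day 7 libraries and at 0.0350, 0.0247 and 0.0645 CPM in the juvenile libraries, where it had 4 counts in all. No day 7 value came near a juvenile one, and the log2 fold change was 6.76 (SE 0.23, edgeR adjusted p = 5e-11). Earlier it lay at 21.2, 26.5 and 26.6 CPM at day 0, at 17.1, 16.1 and 16.4 CPM at day 3 and at 11.2, 10.9 and 12.5 CPM at day 5. Each group lay wholly below the one before, and the day 7 group lay between day 5 and juveniles.

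GDAG01085608.1 had the largest difference in CPM on this side. It stood at 7534, 5508 and 5890 CPM at day 7 and at 172.2, 69.3 and 231.9 CPM in juveniles. The log2 fold change was 5.32 (SE 0.4, edgeR adjusted p = 1.6e-05). At day 0 it lay at 1574, 1628 and 1631 CPM, at day 3 at 3051, 3721 and 2721 CPM, and at day 5 at 5197, 4404 and 4324 CPM. The course was upward, away from the juvenile level, with no overlap between neighbouring groups. The rise to day 5 passed the test and that to day 3 did not (log2 fold changes 1.53 and 0.97, edgeR adjusted p = 0.02 and 0.1). Another tested record kept a constant ratio to it within 10% in every library, so at least 1 other row may count the same RNA.

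Transcripts higher in juveniles were, as a set, below the juvenile level in the trunk from day 0 on. Of the 274 at least 2-fold higher in juveniles, 0 were called higher and 47 (17.2%) lower at day 3 than at day 0. At day 5, 14 (5.11%) were higher and 44 (16.1%) lower than at day 0. Over all tested transcripts the shares higher and lower were 3.02% and 5.48% at day 3, and 3.23% and 5.64% at day 5. The step from day 3 to day 5 had 8 transcripts called higher (0.0171% of those tested) and 1 lower (0.00214%), and 4 of the 8 were among these 274. Their median log2 change was -0.19 at day 3 and -0.09 at day 5. The set took 0.307%, 0.334% and 0.317% of the counts in the day 0 libraries. Its share was 0.202%, 0.227% and 0.236% at day 3, 0.217%, 0.238% and 0.266% at day 5, and 0.234%, 0.294% and 0.279% at day 7. Juveniles, at 0.754%, 0.818% and 0.672%, lay above every trunk library, day 0 included. The choice of the set fixed that order against day 7 and favoured it against the earlier trunk libraries. The 274 were 179 without day 7 replicate 1, and 127 when only transcripts with a mean of at least 1 CPM were tested.

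The 44 of them that were lower at day 5 than at day 0 took 0.0727% ± 0.00185 of the day 0 counts (SD, n = 3). Their day 3 share was 0.0367% ± 0.00347, their day 7 share 0.0386% ± 0.00361 and their juvenile share 0.111% ± 0.0079 (SD, n = 3 each). They thus lay at day 7 near their day 3 share, below day 0 as well as below juveniles. The choice of the set fixed the order against juveniles. It also favoured the order against day 0, which was chosen as high against day 5. The 14 that were higher at day 5 were scarce. Their share of the counts was 0.000152%, 0.000151% and 0.000194% at day 0, 0.00153%, 0.00154% and 0.00238% at day 7 and 0.00905%, 0.0114% and 0.0081% in juveniles. These 14 were chosen as lower at day 7 than in juveniles and lower at day 0 than at day 5, so their order is no result. Their 10 most abundant members held 95.7% of the day 7 counts of the set.

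The 1226 transcripts higher in juveniles by less than 2-fold held 81.2% of the summed juvenile excess in CPM. Their share was 6.23%, 6.18% and 6.15% at day 0, 6.38%, 6.60% and 6.72% at day 7, and 9.15%, 9.45% and 9.04% in juveniles. The trunk share moved little from day 0 to day 7, while juveniles stood well above it. The choice of the set fixed juveniles above day 7 and favoured juveniles above day 0. At day 5, 192 of them (15.7%) were higher and 184 (15%) lower than at day 0, against 3.23% and 5.64% of all tested. These 1226 were also more abundant, with a median of 11.3 CPM at day 0 against 1.03 CPM over all tested. The 1657 transcripts higher at day 7 by less than 2-fold took 18.8%, 19.2% and 18.8% at day 7 and 16%, 15.5% and 15.4% in juveniles. At day 0 their share was 18.1%, 17.3% and 16.5%, between the other groups. The choice of this set as high at day 7 and low in juveniles favoured that order.

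GDAG01081081.1 had the smallest p of the transcripts higher in juveniles. It stood at 10.5, 11.6 and 9.68 CPM at day 7 and at 29.8, 37.3 and 34.3 CPM in juveniles. The log2 fold change, day 7 minus juvenile, was -1.68 (SE 0.11, edgeR adjusted p = 7e-08). Its trunk values before were of the day 7 size, with 10.6, 11.6 and 10.4 CPM at day 0, 8.10, 8.94 and 10.6 CPM at day 3 and 12.1, 10.6 and 12 CPM at day 5. No trunk library came within reach of a juvenile one, and neither day 3 nor day 5 passed the test against day 0 (edgeR adjusted p = 0.17 and 0.67).

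GDAG01024891.1 had the largest difference in CPM on the juvenile side, yet a small fold. It stood at 2904, 2961 and 3191 CPM at day 7 and at 3869, 4329 and 3270 CPM in juveniles. The lowest juvenile lay just above the highest day 7 library, and the log2 fold change was -0.34 (SE 0.08, edgeR adjusted p = 0.015). This call was lost without the low-count filter, when fitted with no other group, and without day 7 replicate 1 or 2 or juvenile replicate 1 or 2, and its adjusted p ranged from 0.0013 to 0.19 over the alternatives. At day 0 it lay at 2445, 2296 and 2498 CPM, below all later libraries. Its rise to day 5 was 0.31 on the log2 scale, with an edgeR adjusted p of 0.029. Within 10%, 3 other tested records kept a constant ratio to it.

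**Figure D4:**
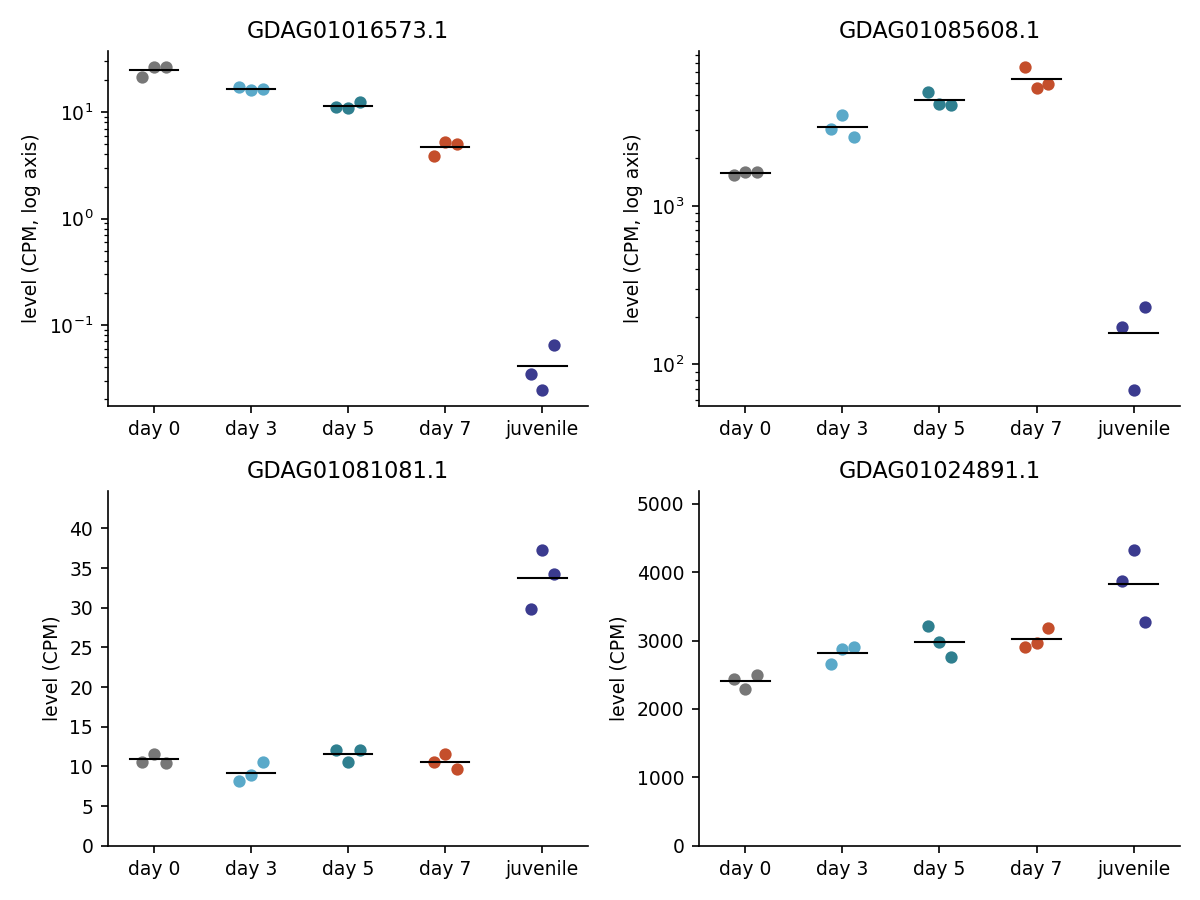
Points give the level in CPM (y; log axis in the upper panels, linear from 0 in the lower) of 4 transcripts in the 15 libraries by group (x), and lines the mean of 3 libraries. Day 7 levels of GDAG01016573.1 lie between day 5 and juveniles, those of GDAG01085608.1 above every other group, those of GDAG01081081.1 at the day 0 level and those of GDAG01024891.1 between day 0 and juveniles.

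A larger body of transcripts stood far above juveniles at day 7 on average without passing the test. There were 1458 with a fitted level at least 4-fold higher at day 7 that were not called, and 4 at least 4-fold lower. Their median level in day 7 replicates 1, 2 and 3 was 0.481, 0.111 and 1.22 CPM, and in the juvenile libraries 0.0701, 0.0494 and 0.0967 CPM. Day 7 replicate 2 lay close to the juveniles in this median and replicate 3 well above. Replicate 3 was the highest of the 3 day 7 libraries in 1373 of the 1458 transcripts, and replicate 2 the lowest in 1369 (ties not counted). The highest day 7 library exceeded the lowest by a median of 12.5 times, against 1.79 times among the 474 called transcripts and 1.29 times among all tested. A wide spread is part of why a transcript is not called, so the size of this ratio follows in part from the choice. That the same library was highest in nearly all of them does not. Among the 474 called transcripts the highest library was replicate 1 in 197, replicate 2 in 109 and replicate 3 in 168.

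The same 1458 transcripts also varied between libraries of the other trunk groups. Those libraries entered the filter and the estimate of spread. Fitted with day 7 and juvenile libraries only, the test called 7 of the 1458 as higher at day 7. Why the others were not called was not tested. Their share of the counts was 1.45%, 1.44% and 4.12% at day 0, 0.427%, 0.505% and 1.80% at day 3 and 0.618%, 1.03% and 1.26% at day 5. Replicate 3 was the highest library in each of these groups, as at day 7, where the shares were 0.173%, 0.041% and 0.454%. In juveniles the shares were 0.0336%, 0.0238% and 0.0432%, with replicate 3 again the highest. What the replicate number stands for is not given in the labels. Without day 7 replicate 2, the test called 112 of the 1458 as higher at day 7, and the count of called transcripts at least 4-fold higher went from 474 to 582. With the replicate number added to the fit, the test called 362 of the 1458 as higher, and the at least 4-fold count was 821. DESeq2, another count test, called 989 of the 1458 as higher at day 7, and 3806 transcripts higher in all in place of 2433.

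**Figure D5:**
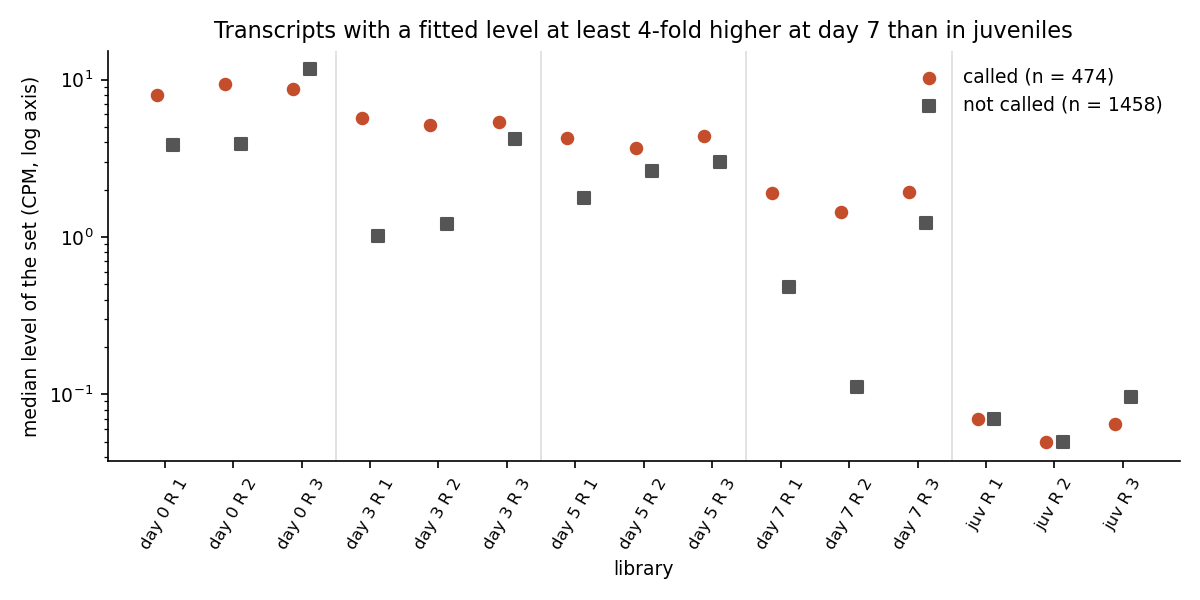
Points give the median level in CPM (y, log axis) of 2 sets of transcripts in each library (x): 474 called at least 4-fold higher at day 7 than in juveniles, and 1458 with a fitted fold of at least 4 that were not called. The called set varies little within a group, while the other set has its highest day 0, day 3, day 5 and day 7 value in replicate 3 and at day 7 runs from 0.111 to 1.22 CPM.

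Of the records whose identifiers come from outside the main assembly project, 513 were tested. Among these singly deposited sequences 46 (8.97%) were higher at day 7 and 59 (11.5%) higher in juveniles, of which 13 and 8 were at least 2-fold apart. The direction is the reverse of the whole table, where more transcripts were higher at day 7, and the difference was not tested. Their names are not paired with the identifiers in the files.

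Set beside the earlier fragments, which were compared with the same juvenile libraries, day 7 had fewer calls. Against juveniles, 5179 transcripts (11.1%) were higher and 3562 (7.62%) lower at day 3, and 5539 (11.9%) were higher and 3515 (7.52%) lower at day 5. The counts share the juvenile group and depend on the spread within each trunk group, and the difference between them was not tested.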

How the data were processed

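Libraries were prepared from TRIzol-extracted RNA with a TruSeq RNA kit, per the labels' protocols. The authors deposited raw read counts per sequence record, judged so from whole numbers with differing totals. Per the submitters' processing notes Bowtie2 was used; its version, the counting tool, the sequence set and filters were not given in the sources used here. Whether counting used strand is not stated either.

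Records were filtered with filterByExpr (minimum count 10, minimum total 15), keeping at least 99.6% of each library's counts, scaled by TMM (factors 0.893 to 1.12) and tested with edgeR 4.0.16 (R 4.3.3) in a robust quasi-likelihood fit of the 15 libraries by group, with 10 residual degrees of freedom. P-values were adjusted by Benjamini-Hochberg over every tested record, and 0.05 was the threshold. Over all tested records the day 7 minus juvenile log2 fold change had a median of -0.0043. CPM uses TMM-scaled library sizes, and log2 CPM a prior count of 2. A share is the percentage of total counts. The fit was also run on simulated counts drawn independently for each library. That run does not bear on shifts that replicate libraries share. Within the day 7 and juvenile groups every pair of replicate libraries differed by more than counting noise. The other groups were not checked for this.

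The comparison, sets and tests were chosen with earlier results of these data known. Named transcripts are, per direction, the called ones with the smallest p and with the largest difference in mean CPM, both with separate groups. Alternatives were DESeq2 1.42.0, its size factors, no filter, a filter at a mean of 1 CPM, fits of only the groups compared, a replicate block, identical records counted once, a test against a 2-fold threshold and leaving out each library.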

Additional observations from a re-analysis of the deposited data

How the results depend on the processing

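DESeq2's test gave 3806 transcripts higher at day 7, 1767 of them at least 2-fold and 1419 at least 4-fold. The test against a 2-fold threshold called 359 higher at day 7 and 35 higher in juveniles. Without the low-count filter 918 were higher in juveniles, and at a mean of at least 1 CPM 127 were higher there by at least 2-fold. Same-numbered day 7 and juvenile libraries correlated at -0.01, 0.11 and 0.11 in their deviations from the group means. Replicates 2 and 3 correlated best with their own number and replicate 1 did not. The check covered only the day 7 and juvenile groups and does not settle whether the numbers pair libraries. The main test used no replicate block. With the block 1168 transcripts were at least 2-fold and 821 at least 4-fold higher at day 7. Of those then called between day 7 and juveniles, 1552 were called at day 3. Of the at least 4-fold higher, 445 were lower at day 5. The block also called 362 of the 1458 uncalled transcripts at least 4-fold higher.

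Leaving out each library in turn gave 2464 to 4326 calls in all, 1666 to 2684 higher at day 7 and 798 to 1642 higher in juveniles; at least 2-fold, 608 to 847 and 179 to 295; at least 4-fold higher at day 7, 394 to 582. Calls at day 3 and day 5 among them ranged from 551 to 1028 and from 775 to 1370, and the at least 4-fold higher that were lower or higher at day 5 from 156 to 274 and from 34 to 57. The 4 named transcripts kept their direction under all 22 alternatives, and 3 of them stayed past the threshold in each; GDAG01024891.1 did not pass in 6. DESeq2's size factors, identical records counted once and fits of only the groups compared left every count within 1.5 times its value. The cause of these shifts was not tested. Transcripts under 1 CPM in the higher group were seldom called, 1.33% of them as higher at day 7 and 0.602% as higher in juveniles.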
